A study of Rattus norvegicus with 3 samples.

Results

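The unplaced sequences of the rat genome build rn4 held 4157 of the 80135 H3K14Ac peaks in the 5 deposited peak lists of a ChIP-Seq study of the cerebellum (Cll). A peak was taken as unplaced when the name of its sequence contained "random" or "Un". The peaks on chr1 to chr20 and chrX, 75975 in all, stand beside them as the assembled chromosomes, and the remaining 3 peaks lay on chrM. Chromatin carrying H3K14Ac was precipitated with antibody 07-353 from the Cll of Gunn rats (Hds Blue:Gunn-UDPGTj) at P9, postnatal day 9. The study asked how histone acetylation differs between hyperbilirubinemic pups (jj) and normobilirubinemic controls (ctrl) of the same strain. The first jj library, jj replicate 1 (jj1), was made from 1 animal. The other, jj replicate 2 (jj2), and the ctrl library were each made from 3 pooled animals, so each of the 3 libraries is 1 value. Sequencing took 2 runs for jj and 1 for ctrl, and a run cannot be told apart from a library.

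H3K14Ac is acetylation of a lysine in the tail of histone H3, and it is found mainly at promoters and enhancers of active genes. The Gunn rat lacks the liver enzyme that conjugates bilirubin, so that homozygous pups are jaundiced from birth, and the Cll is among the brain regions most affected. In rn4, a sequence named for a chromosome and ending in "random" gathers contigs assigned to that chromosome without a place on it, and chrUn gathers contigs assigned to none. The contigs are joined in arbitrary order with gaps between them, so neighbours on such a sequence need not be neighbours in the genome. Contigs that could not be placed are often rich in repeats, and reads from several copies of a repeat fall on whichever copy an assembly holds.

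Each library has an own list, called on that library alone, and each jj library has a further list called with ctrl as the control. The unplaced sequences held 1691 of the 31120 peaks in the own list of jj1, which is 5.43%. They held 717 of 14256 peaks, 5.03%, in jj2 and 1155 of 22026 peaks, 5.24%, in ctrl. These shares lay close together although the lists differed widely in size. The 2 lists called against ctrl did not resemble each other in this respect. In jj1 against ctrl, 549 of 12563 peaks were unplaced, 4.37%, and in jj2 against ctrl 45 of 170 peaks were, 26.5%.

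The lists carry no read totals. The coverage expected by the peak caller over a whole library, worked back from the commonest fold of a list and its −log10 p, was 0.589 fragments per position in jj1, 0.345 in jj2 and 0.539 in ctrl. The library of jj2 thus had the lowest expected coverage and the fewest peaks, on unplaced and on assembled sequence alike.

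When the 3 own lists were merged wherever peaks overlapped by at least 1 bp, the unplaced sequences carried 2182 regions on 23 sequences. Of these, chrUn carried 1434, or 65.7%, and chrUn_random carried 156. The next in number were chr2_random with 76 regions, chr1_random with 72 and chrX_random with 57. The sequence with the fewest was chr10_random, with 5. On chrUn itself there were 1135 peaks of jj1, 499 of jj2 and 769 of ctrl. The 45 unplaced peaks of jj2 against ctrl fell on 3 sequences, 36 on chrUn, 6 on chr1_random and 3 on chrUn_random.

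Regions lay more densely on unplaced than on assembled sequence. Taking the end of the last region as the end of a sequence, there were 19.2 regions per Mb on the unplaced sequences together and 13.5 on the assembled chromosomes. The assembled chromosomes ranged from 11.2 to 16.1 regions per Mb and the unplaced sequences from 8.84 on chr10_random to 33.2 on chr16_random. On chrUn the density was 18.9 regions per Mb. Of the 21 sequences named for a chromosome, 17 were denser than that chromosome, such as chrX_random with 28.9 regions per Mb against 14.2 on chrX, and chr16_random against 13.2 on chr16. The other 4 were less dense, chr10_random with 8.84 against 15.1, chr7_random with 11.2 against 14.7, chr12_random with 12.2 against 16.1 and chr19_random with 12.7 against 13.4. True lengths of the sequences were not used here, so a sequence with few regions may have a density that is too high.

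The fold of a peak is its height over the coverage expected at the site, averaged over the peak. The median fold of unplaced peaks was 3.68 in jj1, 4.09 in jj2 and 3.70 in ctrl, beside 4.56, 5.87 and 5.25 on the assembled chromosomes. The share of unplaced peaks with a −log10 q under 3 was 56.6% in jj1, 42.4% in jj2 and 53.8% in ctrl. On assembled chromosomes these shares were 45.7%, 23.2% and 38.7%. In each library the unplaced peaks therefore had the lower median fold and the larger share of peaks near the calling limit.

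Among the calls with the highest −log10 q, unplaced peaks were frequent. In jj1, 29 of the 81 peaks that reached a −log10 q of 100 were unplaced. In jj2 15 of 49 were, and in ctrl 23 of 72. The unplaced peaks made up 35.8%, 30.6% and 31.9% of these strongest calls in jj1, jj2 and ctrl. From a −log10 q of 20 upward the order depended on the library, since such calls made up 9.64% of unplaced and 20.4% of assembled peaks in jj1 and 7.71% and 10.7% in ctrl, but 6.28% and 1.34% in jj2. Folds of 9 or more were rarer on unplaced sequence in all 3 libraries, at 5.03% against 16.6% in jj1, 2.51% against 5.30% in jj2 and 3.98% against 12.8% in ctrl. The highest fold and the highest −log10 q of each own list were on assembled chromosomes.

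The highest fold on unplaced sequence was at 1 site in all 3 libraries. On chr6_random, the peak from 1669757 to 1670101 in jj1 had a fold of 15.8 and a −log10 q of 611.36. The peak of jj2 from 1669760 to 1670097 had a fold of 15.9 and a −log10 q of 360.22, and that of ctrl from 1669758 to 1670104 had 17.6 and 636.47. The 3 libraries drew the edges of this peak within a few bases of each other. The next site in all 3 lists was on chrUn from 46991729 to 46992256 in jj1. It had a fold of 14.2 in jj1, 14.8 in jj2 and 15.4 in ctrl. Its −log10 q values were 1216.91, 639.83 and 1050.82, the highest of any unplaced peak in each library. Neither site had a peak in a list called against ctrl.

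The site in the third rank differed between libraries. In jj2 and ctrl it was on chrUn from 8879366 to 8879711, as drawn in jj2, with a fold of 13.0 in jj2 and 13.9 in ctrl. The jj1 peak there had a fold of 12.1, so it fell just below the next site of that library in rank. This was on chrUn from 25164120 to 25164739, with a fold of 12.6 in jj1, 7.67 in jj2 and 10.2 in ctrl. Its −log10 q was 42.76, 10.49 and 25.82, far below that of the other sites named. Unlike the other sites named for their fold, it had a peak in a list called against ctrl, with a fold of 2.42 in jj1 against ctrl.

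Several of the strongest or broadest unplaced sites named here had a high expected coverage. The coverage expected at each peak can be worked back from its fold and −log10 p. A site was called one of high background when this was at least 20 fragments per position, a limit chosen after the values were seen. No own fold of an unplaced peak exceeded 17.6, so a very high −log10 q goes with a raised worked-back coverage. The many unplaced peaks at a −log10 q of 100 and the many of high background are therefore not separate observations. Such peaks numbered 80 of the 1691 unplaced peaks in jj1, 4.73%, against 0.428% of the assembled ones. In jj2 they were 69 of 717, 9.62% against 0.657%, and in ctrl 74 of 1155, 6.41% against 0.546%. The jj1 share was 7.16% against 1.07% at a limit of 10, and 2.4% against 0.193% over the peaks whose worked-back height was whole within 0.02. The unplaced sequences thus held 38.8%, 43.7% and 39.4% of all high-background peaks of the 3 own lists, although the median background of unplaced peaks was near that of assembled ones, at 0.925 and 0.951 in jj1. Peaks with a fold under 2 numbered 35 on unplaced and 36 on assembled sequence in jj1, 25 and 30 in jj2, and 25 and 40 in ctrl.

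The high-background peaks were nearly all shared by the libraries, on unplaced as on assembled sequence, where the shares were 95.2% or more in each pairing. Of the 80 in jj1, 79 overlapped a ctrl peak and 77 a peak of jj2. All 69 in jj2 overlapped a ctrl peak, and 67 overlapped a peak of jj1. The 74 in ctrl had a peak of jj1 in 74 cases and of jj2 in 72. Such sites lay mainly on chrUn, which had 61 of those in jj1, and on chr1_random, which had 11. Of the other numbered sequences, only chr6_random, chr9_random and chr13_random had any in jj1, with 1 each. The excess was thus not a trait of each unplaced sequence. Assembled peaks of high background were gathered on few sequences too, with 31 of the 126 in jj1 on chr13, 27 on chr17 and 19 on chr18. No input library or read coverage was analysed here, so the number of copies behind a site and the level of H3K14Ac on each copy cannot be told apart.

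The typical unplaced peak was as wide as the typical assembled one. Median widths were 564 and 577 bp in jj1, 524 and 526 bp in jj2, and 524 and 515 bp in ctrl, with the unplaced value given first. The broad end of the distribution differed. The upper quartile was 939 bp on unplaced and 846 bp on assembled sequence in jj1, 935 and 739 bp in jj2, and 890 and 755 bp in ctrl. Peaks wider than 2000 bp made up 5.85% of unplaced and 1.50% of assembled peaks in jj1. These shares were 7.53% and 0.982% in jj2, and 6.67% and 1.04% in ctrl. The unplaced peaks thus had a longer tail of broad peaks in each library.

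How the widths compared depended on the fold. Unplaced peaks with a fold of 2 to 3 had a median width of 1038 bp in jj1, where assembled ones had 684 bp. In jj2 the order was turned, with 1232 bp over 60 unplaced and 1464 bp over 61 assembled peaks, and in ctrl the medians were 1196 and 1092 bp. At a fold of 3 to 4, which held 52.1% of the unplaced peaks of jj1, the unplaced medians were 502, 446 and 418 bp in jj1, jj2 and ctrl, and the assembled ones 457, 360 and 370 bp. At a fold of 4 to 6 they were 500, 463 and 497 bp beside 466, 449 and 428 bp. At a fold of 6 to 9 the unplaced peaks were the narrower in jj1, at 656 against 702 bp, and in ctrl, at 580 against 653 bp, but not in jj2, at 622 against 604 bp. At like fold, a greater width on unplaced sequence in all 3 libraries was therefore found for peaks with a fold of 3 to 4 and for those of 4 to 6.

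The widest unplaced peaks had low folds and lay on chrUn. The widest in both jj libraries ran from 38262012 to 38268293 in jj1, and its width was 6282 bp in jj1, 6269 bp in jj2 and 6284 bp in ctrl. Its fold was 1.85, 1.99 and 2.01 in the same order, with an expected coverage of 364, 154 and 240 fragments per position. The widest peak of ctrl, 7506 bp from 29687400 to 29694905, overlapped peaks of 6011 bp in jj1 and 5923 bp in jj2. There the folds were 1.97, 2.12 and 2.18. The 3 libraries thus drew the same broad peaks, with ctrl extending the second by more than a kilobase at its lower end.

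The other peaks among the widest were on chrUn as well. The peak from 38543246 to 38548725 was 5480 bp wide in jj1 and 5525 bp in ctrl, while jj2 had a peak of 2193 bp at its lower end. The upper part was not without a jj2 peak, since a further own peak of jj2 lay there, whose width and fold are not given here. Next to the widest ctrl peak, a peak from 29677986 to 29683288 was 5303 bp wide in jj2, 5394 bp in jj1 and 5443 bp in ctrl. The ctrl peak from 24638050 to 24644181 was 6132 bp wide, beside 4408 bp in jj1 and 4419 bp in jj2. Each of the peaks with a width given here had a fold between 1.52 and 2.33.

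Unplaced peaks had close neighbours more often than assembled ones. In jj1, 537 unplaced peaks, 31.8%, had another peak of the same list within 10 kb, against 20.4% on assembled chromosomes. The shares were 30.8% against 14.9% in jj2 and 28.8% against 17.4% in ctrl. Runs of 5 or more peaks held 4.79% of unplaced peaks in jj1, 8.79% in jj2 and 7.10% in ctrl, where the assembled shares were 1.65%, 1.05% and 1.60%. Among the merged regions, 38.2% of those on unplaced and 26.4% of those on assembled sequence lay in a cluster. Regions were also denser on unplaced sequence, at 19.2 against 13.5 per Mb, and the part of density in these shares was not tested. Because contigs are joined in arbitrary order, neighbouring peaks on chrUn may lie on contigs from different places, and the contig of each peak was not analysed here.

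The cluster with the most regions on any unplaced sequence spanned 124 kb of chrUn, from 38428037 to 38551770. It held 28 merged regions, and 19 of them had a peak in all 3 libraries. The own lists gave it 26 peaks in jj1, 22 in jj2 and 26 in ctrl, with median folds of 2.73, 2.74 and 2.91. Its strongest member, chosen after its values were seen, lay from 38517757 to 38518387 in jj1 and had a −log10 q of 949.98 in jj1, 475.01 in jj2 and 786.75 in ctrl. High-background peaks numbered 15, 13 and 15 in the 3 libraries. The assembled cluster with the most merged regions held 21. In the own lists, the longest run of peaks on unplaced and assembled sequence held 26 and 22 peaks in jj1, 18 and 22 in jj2, and 19 and 24 in ctrl, so the excess on unplaced sequence held for merged regions and jj1 and not for the other libraries.

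A different picture came from chr1_random, where 10 regions from 2528525 to 2581121 covered 65.1% of a span of 52.6 kb. All 11 peaks of jj1, 12 of jj2 and 11 of ctrl in it were of high background, and 9 of the 10 regions had peaks in all 3 libraries. Median folds were 1.39, 1.53 and 1.47, and the highest folds 2.45, 3.03 and 2.76. The highest −log10 q was nevertheless 486.42 in jj1, 317.23 in jj2 and 441.04 in ctrl. The expected coverage at its peaks had a median of 671 fragments per position in jj1, 261 in jj2 and 442 in ctrl. This was the cluster with the highest coverage and the lowest folds of the 5 with the most regions.

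The remaining clusters of the 5 held few or no high-background peaks. On chr16_random, 11 regions from 209463 to 281137 held 7 peaks of jj1, 5 of jj2 and 5 of ctrl, none of high background, and 2 of the regions had a peak in all 3 libraries. On chrUn, 11 regions from 69997408 to 70073826 held 7, 10 and 10 peaks, with folds from 2.21 to 4.03 in jj1, 2.47 to 4.69 in jj2 and 2.30 to 4.11 in ctrl, and 6 of the regions were in all 3 libraries. A further 8 regions on chrUn from 8863178 to 8909930, of which 4 were in all 3 libraries, held 5, 4 and 8 peaks, among them the narrow peak at 8879366 named above for its fold in jj2 and ctrl. The median expected coverage in jj1, jj2 and ctrl was 1.18, 0.880 and 1.26 fragments per position in the run on chr16_random, 5.62, 3.81 and 5.27 in the second and 12.2, 5.59 and 8.21 in the last. The 5 clusters therefore differed widely in coverage and in how many of their regions were in all 3 libraries.

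Agreement between the own lists was lower on unplaced than on assembled sequence. Of the unplaced peaks of jj1, 33.4% overlapped a peak of jj2 and 45.5% a peak of ctrl. For jj2, 80.1% overlapped a peak of jj1 and 75.9% a peak of ctrl. For ctrl, 67.1% overlapped a peak of jj1 and 46.2% a peak of jj2. On assembled chromosomes the shares in the same order were 40.1%, 51.6%, 87.6%, 84.1%, 73.0% and 54.5%, so that each of the 6 was lower on unplaced sequence. The unplaced ctrl peaks overlapped the larger jj list more often than the smaller one, and the smaller jj list was the one most fully contained in the others.

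Within bands of strength, this order held only in part. Among peaks with a −log10 q of 1 to 2, unplaced peaks were shared more often than assembled ones in all 6 pairings of lists. In jj1, 17.1% of 690 such unplaced peaks overlapped a ctrl peak, against 10.3% of assembled ones. The shares were 39.2% and 24.5% for jj2 peaks in ctrl, and 34.7% and 25.8% for ctrl peaks in jj1. At a −log10 q of 3 to 5 the order depended on the pairing, with 48.4% and 39.0% for jj1 peaks in ctrl but 87.4% and 90.9% for jj2 peaks in ctrl. From a −log10 q of 20 upward, 98.8% or more of the unplaced peaks of every list were shared in every pairing, and 98.8% or more of the assembled ones were too. Weak peaks made up a larger share of unplaced peaks, and a limit on −log10 q still leaves a different mix of strengths above it. With a −log10 q of at least 3 in every list, the unplaced share was below the assembled one in all 6 pairings. It was 52.2% against 63.4% for jj1 peaks in jj2, and 65.4% against 77.6% for jj1 peaks in ctrl. Unplaced peaks with a −log10 q of 1 to 3 were shared more often than assembled peaks of like strength in all 6 pairings. At 5 to 10, the unplaced share was 48.4% against 38.2% for jj1 peaks in jj2 and 84.7% against 75.7% for ctrl peaks in jj2. For jj1 peaks in ctrl it was 74.0% against 69.7%. In the other pairings it was lower at 5 to 10, such as 97.3% against 99.7% for jj2 peaks in jj1. Peaks of jj1 and of ctrl had the higher unplaced share in jj2 in every band below 20. The part of weak peaks in the lower agreement was not tested.

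Where each library had exactly 1 peak in a merged region, the positions could be compared. There were 492 such unplaced regions. The edge that differed most was off by a median of 156 bp between jj1 and jj2, 114 bp between jj1 and ctrl, and 108 bp between jj2 and ctrl. Assembled regions gave 120, 81 and 83 bp. Where both peaks of a pair had a −log10 q of at least 20, the medians were 73, 52 and 39 bp over 42, 83 and 42 unplaced regions, and 65.5, 69 and 38 bp on assembled chromosomes, with no common order. The rank correlation of folds over these unplaced regions was 0.846, 0.923 and 0.874 in the same order, and over 11089 assembled regions it was 0.642, 0.824 and 0.772. That of −log10 q differed less, at 0.848, 0.919 and 0.855 on unplaced and 0.808, 0.889 and 0.829 on assembled sequence. The regions share their libraries, and unplaced and assembled peaks span different mixes of strength, so the coefficients only describe each set.

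Of the 2182 unplaced regions, 512 had a peak in all 3 libraries, which is 23.5%, beside 30.2% of all 38744 regions of the genome. Regions with a jj peak and no ctrl peak numbered 1036, 47.5% beside 43.4%. Regions found in ctrl alone numbered 357, 16.4% beside 15.0%. The jj-only regions came mostly from jj1, since 868 had a peak in it alone, 115 in jj2 alone and 53 in both. Without jj1, the jj-only regions fell to 173 and the ctrl-only regions rose to 621. With a −log10 q of at least 3 in every list, 274 jj-only and 44 ctrl-only regions were found, so both counts rest on weak peaks.

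The share of regions in all 3 libraries varied from sequence to sequence. It was 25.3% on chrUn, 20.5% on chrUn_random, 27.8% on chr1_random (20 of 72), 19.7% on chr2_random (15 of 76) and 10.5% on chrX_random (6 of 57). The chromosomes of the same name had 32.3% for chr1, 20.9% for chr2 and 11.4% for chrX. Of the 21 sequences named for a chromosome, 19 had a lower share than that chromosome and 2 a higher one. The gap was small for chr2_random and chrX_random but wide for others with few regions, such as chr7_random with 7.69% against 36.1%, chr14_random with 6.67% against 29.0% and chr3_random with 12.5% against 35.5%.

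The strongest unplaced regions with a peak in both jj libraries and none in ctrl, ranked by the smaller −log10 q, were moderate. The first was at the end of the covered part of chr1_random, from 3870154 to 3870636, with a fold of 7.22 and a −log10 q of 12.73 in jj1 and 5.66 and 5.15 in jj2. The second was on chrUn from 26956072 to 26956818, with folds of 7.95 and 5.54 and −log10 q values of 11.27 and 4.95. Both had a peak in jj1 against ctrl, with folds of 3.19 and 5.39, and none in jj2 against ctrl. The third, on chrUn from 40831456 to 40831909, had folds of 5.92 and 5.01, −log10 q values of 5.93 and 4.02 and no peak in either list called against ctrl. The 512 regions in all 3 libraries had a median of 13.58 for the highest −log10 q of a region. For the 53 regions of both jj libraries without ctrl this median was 2.69, and 52.8% of them were under 3. By their jj1 values the first and the second thus came close to a typical shared region, but they were not typical of their own class.

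The strongest regions of ctrl alone were moderate too. On chrUn, a ctrl peak from 710997 to 711303 had a fold of 5.74 and a −log10 q of 6.17. The next ran from 26851361 to 26851665 with 5.29 and 4.72, and the one after from 58928426 to 58928854 with 4.97 and 4.01. Of the 357 regions in ctrl alone, 94.7% had a −log10 q under 3, and of the 868 in jj1 alone 84.0% did. Regions of a single library were thus mostly weak calls, on unplaced as on assembled sequence, where the shares were 97.5% and 84.5%.

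The lists called against ctrl set the unplaced peaks apart in opposite directions. In jj1, 535 of the 1691 unplaced own peaks, 31.6% (95% exact interval 29.4 to 33.9), had a peak called against ctrl, beside 39.1% of the whole list. In jj2, 41 of 717 did, 5.72% (4.13 to 7.68), beside 1.15% of the whole list. The intervals cover counting only, and neighbouring peaks are not independent. The unplaced share was thus below the rest in jj1 and above it in jj2. It moved with the limit on −log10 q of the list called against ctrl, to 20.6% and 1.67% at a limit of 3 and to 12.2% and 1.39% at 5. At the same limits the assembled shares were 26.2% and 0.192%, and 13.3% and 0.118%, so the order was the same. In jj1, however, the shares at a limit of 5 lay close together, and no interval is given for them, so they are not set apart there. On the numbered sequences without chrUn and chrUn_random, the jj2 share was 2.37%, which is 4 of 169 peaks and too few to set apart from the 0.909% of assembled peaks, and the 6 peaks of jj2 against ctrl on these sequences all lay in the block on chr1_random.

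The called shares were also split by background and by strength. Of its 69 high-background unplaced peaks, 53.6% were called against ctrl (41.2 to 65.7), and of the 89 on assembled chromosomes 46.1% were (35.4 to 57.0). Among the other peaks, the shares were 0.617% of 648 unplaced and 0.610% of 13448 assembled ones. Within either class unplaced and assembled peaks of jj2 differed by less than their counting intervals. In jj1, high-background peaks were called against ctrl in 92.5% of unplaced and 93.7% of assembled cases, and the other peaks in 28.6% and 39.3%. By strength, 9.51% of the unplaced jj1 peaks with a −log10 q of 1 to 3 were called against ctrl and 11.9% of the assembled ones. At a −log10 q of 5 to 10 the shares were 52.1% and 40.9%, and at 10 to 20 they were 76.5% and 62.9%. The lower unplaced share over the whole list of jj1 thus went together with its larger share of weak peaks, and was turned among stronger ones. In jj2, 4.00% of unplaced and 0.503% of assembled peaks were called at a −log10 q of 5 to 10, 14.9% and 0.390% at 10 to 20, and 44.4% and 14.9% from 20 upward. At like strength, unplaced jj2 peaks from a −log10 q of 5 upward were thus called more often, while within a class of background the shares lay close together.

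The unplaced peaks of jj2 against ctrl were broad and low. Their median width was 865 bp, against 338 bp for the 125 assembled peaks of that list, and their median fold was 1.42 against 4.34. Of the 45 peaks, 41 had a fold under 2, 91.1% beside 38.4% of the assembled ones, and 41 were of high background, 91.1% beside 39.2%. A ctrl peak lay under 43 of the 45 and under 51.2% of the assembled ones. The 4 peaks with a higher fold were all on chrUn. Those from 2874499 to 2874772 and from 15936172 to 15936463 had folds of 4.46 and 4.49, an expected coverage of 0.858 and 0.798 fragments per position, and no ctrl peak. The others, from 6564596 to 6565614 and from 38490416 to 38490731, had folds of 2.56 and 2.52 and an expected coverage of 9.69 and 12.9. They are named after their values were seen, because they are the exceptions.

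In jj1 against ctrl, the 549 unplaced peaks were more mixed. Their median fold was 3.21, above the 2.85 of assembled peaks, and 23.7% had a high background against 30.5%. A ctrl peak lay under 64.1% of them and under 73.9% of the assembled ones. The widest peak of that list on any sequence, chosen after its values were seen, was unplaced. It covered 27487 bp of chr1_random, from 2545704 to 2573190, with a fold of 1.36, within the block of extreme coverage described above. The widest assembled peak of the list was 16180 bp.

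The regions named next carry a peak in both lists called against ctrl. The lists share the ctrl library, so their coincidence is not read as agreement, and the folds are over a coverage that differs from site to site. The region with the highest smaller fold was on chrUn from 6563652 to 6565837, with a fold of 3.04 in jj1 against ctrl and 2.56 in jj2 against ctrl. Of the next 4, all on chrUn, 3 lay within the cluster of 28 regions. From 38489762 to 38491918 the folds were 1.97 and 2.52, from 38543246 to 38551612 they were 1.75 and 1.95, and from 38532767 to 38534627 they were 1.67 and 1.57. The region outside it, from 23414002 to 23415591, had folds of 2.14 and 1.57 with −log10 q values of 114.01 and 15.56. Below the first of these regions, no region reached a fold of 2 in both lists.

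Runs of 3 or more such regions occurred at 3 places. On chr1_random from 2528246 to 2581081, 3 regions held 3 peaks of jj1 against ctrl, with folds of 1.36 to 1.39, and 6 peaks of jj2 against ctrl, with the highest fold of a region between 1.33 and 1.35. On chrUn from 27860875 to 27882139, 4 regions had folds of 1.39 to 1.55 and 1.44 to 1.50. On chrUn from 38526106 to 38551612, 3 regions had folds of 1.51 to 1.75 and 1.49 to 1.95. Over the peaks of these regions, the highest −log10 q in the lists of jj1 and jj2 was 15.66 and 7.18 on chr1_random, 13.40 and 2.56 in the run of 4, and 11.04 and 2.96 in the last. In these runs the folds were low and ctrl had peaks of its own at each region, and the part of coverage in them was not tested.

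A single site, chosen after its values were seen, was the extreme of such calls and not typical of them. On chrUn, the own peaks from 29994711 to 29995967 in jj1, of 1257 bp, had a fold of 7.77 in jj1, 7.94 in jj2 and 8.33 in ctrl. Called against ctrl, the site had the highest −log10 q of any unplaced peak in both lists, 115.26 in jj1 and 17.25 in jj2. The folds there were 1.53 and 1.28, over an expected coverage of 2241 and 1400 fragments per position. These coverages were the highest of any unplaced peak in the 2 lists, where the medians were 7.55 and 192. The own fold of ctrl at the site was the highest of the 3 libraries. The part of coverage in these calls was not tested.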

How the data were processed

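H3K14Ac ChIP-Seq of P9 Cll was used from 2 jj libraries and 1 ctrl library. The submitters' processing notes name Bowtie2, FastQC, MACS2, HOMER and the build rn4, and versions and MACS2 options are not given in the sources used here. In each of the 5 deposited lists of broad peaks, the authors report for every peak its enrichment as a ratio to expected coverage (fold), its −log10 p-value and its −log10 q-value, all averages over the peak. Positions count from 1.

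Peaks were counted, overlapped (at least 1 bp), merged and clustered (gaps of at most 10 kb) in pandas 2.3.3 and numpy 2.4.6 under Python 3.11.15. With scipy 1.17.1, the expected coverage was worked back, with p from a Poisson distribution around it and the fold as height over background after adding 1 to both, and exact binomial intervals were computed. Because values are averages over a peak, coverages worked back for single peaks are approximate. Overlaps and clusters were tested on simulated lists. The working back was tested on simulated flat peaks, and on uneven peaks only at a low background. Its error for uneven peaks of high background is therefore not known. As ctrl is 1 library, jj and ctrl were compared without a test.

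Named are, in each own list, the 3 peaks with the highest fold and the 3 widest, the 5 clusters with the most merged regions, and the 5 sequences with the most regions. Also named are, of regions called against ctrl in both jj libraries, the 5 with the highest smaller fold and each cluster of 3 or more, and the 3 strongest jj-only regions of both jj libraries and ctrl-only regions. Other sites are said to be chosen after their values were seen. The members and lists were chosen with earlier results of these data known. Alternatives were limits of 3 and 5 on −log10 q, other overlaps and gaps, numbered sequences alone, libraries or the top cluster left out and other limits of background. Genes and repeats at the peaks, tissue markers and sequences were not analysed here.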

Additional observations from a re-analysis of the deposited data

How the results depend on the processing

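Of 110 alternatives, 45 left a count within 1.5 times, or a share within its 95% interval, and 65 moved it. Stricter limits leave fewer peaks by construction. With a −log10 q of at least 3 in every list, the unplaced peaks numbered 734 in jj1, 413 in jj2 and 534 in ctrl, or 4.39%, 3.82% and 4.01% of the lists. At a limit of 5 they numbered 542, 262 and 375, or 3.74%, 3.14% and 3.34%. On numbered sequences alone they were 439, 169 and 300, or 1.41%, 1.19% and 1.36%.

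Shares of unplaced peaks overlapping another list were, at a limit of 3, 52.2% (jj1 in jj2), 65.4% (jj1 in ctrl), 93.5% (jj2 in jj1), 90.6% (jj2 in ctrl), 90.4% (ctrl in jj1) and 69.5% (ctrl in jj2). At a limit of 5 they were 46.3%, 66.2%, 96.9%, 93.5%, 95.7% and 64.8%. On numbered sequences alone, those that moved were 29.6%, 40.3%, 76.9%, 59% (ctrl in jj1) and 41% (ctrl in jj2). Each was below its assembled share. Rules of 50% overlap or 1 kb moved none of the 6.

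Shares with a neighbour were 80.1%, 60.8% and 68.9% in jj1, jj2 and ctrl at a gap of 50 kb, beside 69.3%, 51.0% and 59.1% on assembled chromosomes, so the excess was relatively smaller than at 10 kb. At 1 kb they were 0% in all 3, and 0% for assembled peaks too. At a limit of 3 on −log10 q they were 28.5% in jj1 and 33.0% in ctrl, beside 22.5% and 18.8% on assembled chromosomes. That limit left 274 jj-only and 44 ctrl-only regions. With jj1 or jj2 left out, jj-only regions numbered 173 to 921, ctrl-only regions 380 to 621 and regions in every library used 531 to 768.

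Own peaks called against ctrl were 20.6% in jj1 and 1.67% in jj2 with a −log10 q of at least 3 in the list called against ctrl, and 12.2% and 1.39% at 5. On numbered sequences alone the jj2 share was 2.37% (of 169 peaks). The unplaced share of jj2 against ctrl was 37.0% at a limit of 5 (27 peaks in all), and on numbered sequences alone these sequences held 1.03% and 3.53% of the jj1 and jj2 lists against ctrl. Leaving out the cluster with the most regions moved none of the counts or shares recomputed without it.

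Over unplaced peaks with a worked-back height that is whole within 0.02, of which there were 125 in jj1 and 43 in jj2, high backgrounds made up 2.4% and 13.95%, beside 0.193% and 0.503% of assembled ones. With limits of background added after the values were seen, the shares were 7.16% in jj1 and 8.92% in ctrl at 10, beside 1.07% and 0.786% on assembled chromosomes, and 3.73%, 7.25% and 4.94% in jj1, jj2 and ctrl at 50, beside 0.238%, 0.421% and 0.316%. The causes of these shifts were not tested beyond the number of peaks left. With 1 ctrl library and 2 jj libraries of unequal make-up, no spread between replicates of ctrl is known. Depth per library is not known from the lists, so its part in the number of weak peaks was not tested, and read coverage, input, mappability and contigs were not analysed here.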
